A study of Homo sapiens with 14 samples.

Results

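The 10 miRNAs described here are known as markers of cell lineages other than the epicardium: miR-122-5p of liver, miR-126-3p and miR-126-5p of endothelium, miR-9-5p and miR-124-3p of neural cells, miR-451a, miR-223-3p and miR-142-3p of blood, and miR-1-3p and miR-133a-3p of muscle. They are 10 of the 2632 miRNAs in the deposited count table. They were chosen by lineage with their raw counts in all 14 libraries, and the relation of those counts to library totals, already known. Their levels and that relation are therefore described without a test.

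The libraries hold small RNA of extracellular vesicles (EVs), small membrane-bound bodies shed by cells, precipitated from the medium of epicardial cells, which cover the heart. All groups were grown from 1 established line of human embryonic stem cells, hES-2, and all were at a pro-epicardial stage when the conditions began. Untreated cells (NT, labelled pro-epicardial; replicates 1, 3 and 4) received no additive. SB cells (labelled mature epicardial; replicates 1 to 4) were kept for 8 days in SB-431542, which blocks TGF-β type I receptor kinases, at 6 µM. TGFb cells (labelled stimulated epicardial; replicates 1 to 4) were given TGF-β1 at 5 ng/ml during the first 4 days only. FGF cells (labelled stimulated epicardial; replicates 2, 3 and 4) were given basic FGF at 10 ng/ml throughout the 8 days. Medium given from day 4 on had passed a 100 kDa filter in every group, and EVs were taken from medium of days 6 and 8, each conditioned for 48 h. No library of unconditioned medium was analysed here. Libraries are named below by group and replicate number, as NT1.

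A miRNA is a short RNA that guides a silencing complex to messenger RNAs, mainly through its seed, the bases near its 5′ end. Some miRNAs are made at high levels in few lineages: miR-122 dominates the miRNA of hepatocytes, miR-126 is made from an intron of the endothelial gene EGFL7, and miR-1 and miR-133a are transcribed together in heart and skeletal muscle. Such miRNAs also circulate in blood plasma and serum, in vesicles and in protein complexes.

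The 6 sequences below are those of the listed miRNAs with 12 or more counts over the 14 libraries, which carry the values that follow. They are from RefSeq (GRCh38.p14), 5′ to 3′, with the seed (bases 2 to 8) in capitals.
miR-122-5p: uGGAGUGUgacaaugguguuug
miR-126-3p: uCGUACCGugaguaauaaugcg
miR-9-5p: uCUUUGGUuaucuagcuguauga
miR-142-3p: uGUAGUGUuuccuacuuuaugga
miR-1-3p: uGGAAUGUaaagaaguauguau
miR-133a-3p: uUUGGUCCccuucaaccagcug

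RefSeq entries were matched for 8 of the 10, and miR-124-3p and miR-451a are named only. None of the 28 pairs among the 8 matched miRNAs shared a seed. The seeds of miR-1-3p and miR-122-5p differ by A5G, with positions counted from 1 at the 5′ end, miR-1-3p first. The 8 matched miRNAs thus have 8 distinct seeds, which does not bear on how counts were assigned to them.

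Depth was low and uneven. The totals were 14862, 9462 and 1010 counts in NT, 345, 179, 3826 and 1286 in SB, 1418, 231, 7478 and 2770 in TGFb, and 115, 3241 and 868 in FGF, each in replicate order. A count of 0 allows a share of up to 0.0202% in NT1 and up to 2.61% in FGF2 (3 counts of the total); these limits, and the 95% Wilson intervals given for shares, cover counting error only. All 9 of the mesenchymal miRNAs listed as a check of the labelled cells were detected (1617 counts, 1.62% to 18.3% of a library). Most of these counts were of miR-125b-5p (844) and miR-21-5p (518). miR-143-3p had 161, miR-199a-3p 46, miR-100-5p 23 and miR-22-3p 18. The others were nearly absent, with 4 of miR-145-5p, 2 of miR-214-3p and 1 of miR-199a-5p. The summed count thus rests on a few of the listed miRNAs and does not by itself identify the cells. Of 8 miRNAs of undifferentiated pluripotent cells, 2 were detected (5 counts). The labels do not say that replicates came from separate cultures, so p-values measure only the spread between these libraries.

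The listed miRNAs made up a small part of the EV miRNA, and their summed count varied far less than depth did. Over all libraries 8 of the 10 were detected, with 264 of 47091 counts (0.561%), against 17% of all 2632 miRNAs with at least 1 count. Their summed count ran from 6 in FGF2 to 43 in FGF3, while library totals ran from 115 to 14862. As a share of the library, the sum was lowest in NT1 (0.0875%), had a median of 1.32% and was highest in SB2 (10.6%). The deepest library thus held 13 counts of the listed miRNAs and SB2, with 179 counts in all, held 19. In EV samples of this kind, fewer vesicles from a cell type and less of a miRNA per vesicle cannot be told apart.

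**Figure D1:**
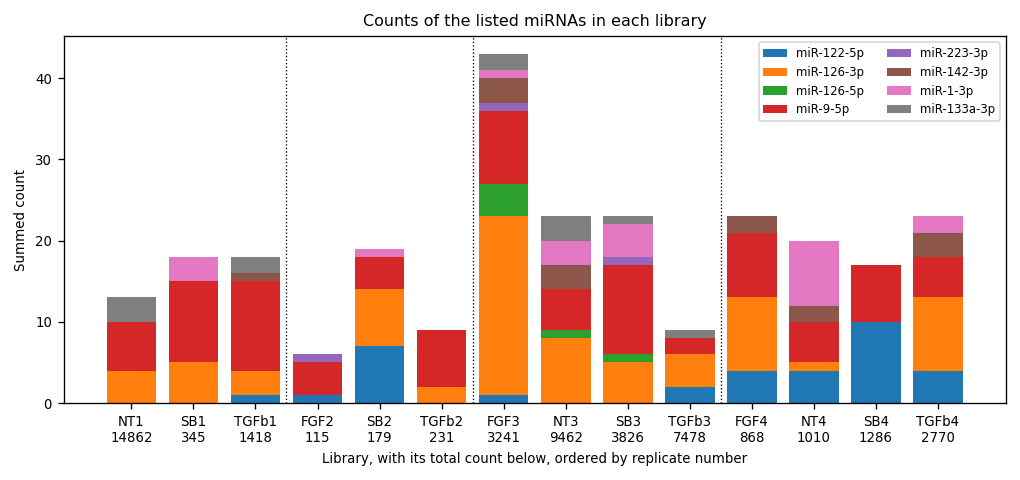
Summed counts (y axis, linear) of the 8 detected miRNAs, stacked by miRNA, in each of the 14 libraries (x axis, with the library total below the name, ordered by replicate number). The sums lie between 6 and 43 although the totals run from 115 to 14862.

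Of the liver markers, miR-122-5p was found in 9 libraries with 34 counts in all. Its gene lies at chr18:58451074-58451158 (GRCh38, plus strand), in an exon of the long non-coding RNA gene MIR122HG. The counts were 0, 0 and 4 in NT1, NT3 and NT4, then 0, 7, 0 and 10 in SB1 to SB4. They were 1, 0, 2 and 4 in TGFb1 to TGFb4, and 1, 1 and 4 in FGF2, FGF3 and FGF4. The 2 deepest libraries, NT1 and NT3, had no count of miR-122-5p, and SB2, with 179 counts, had 7. That is 3.91% of SB2 (95% interval 1.91% to 7.85%) against upper limits of 0.0202% in NT1 and 0.0317% in NT3. Replicates of SB lay far apart, with 0 of 3826 counts in SB3, which allows up to 0.0784%, and 10 of 1286 in SB4 (0.778%). Companion liver miRNAs were nearly absent: 2 of 4 were detected, with 5 counts in all. miR-122-3p, the other arm of the same hairpin, was at 0.

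The endothelial pair was seen mainly as its 3′ arm. The gene MIR126 lies at chr9:136670602-136670686 (GRCh38, plus strand), in an intron of EGFL7. Counts of miR-126-3p were 4, 8 and 1 in NT1, NT3 and NT4 and 5, 7, 5 and 0 in SB1 to SB4. They were 3, 2, 4 and 9 in TGFb1 to TGFb4 and 0, 22 and 9 in FGF2, FGF3 and FGF4. With 79 counts in 12 libraries it was the second most counted of the listed miRNAs. FGF3 held the most counts, 22 of 3241 (0.679%, 95% interval 0.449% to 1.03%), and the highest share was again in SB2, 7 of 179 (3.91%). SB4 had 0 of 1286 counts, which allows up to 0.233%, so its place in the range of shares is not settled. The 5′ arm, miR-126-5p, had 6 counts: 4 in FGF3 and 1 each in NT3 and SB3. All 3 of those libraries also held miR-126-3p, which was found without the 5′ arm in 9 others.

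Of the endothelial companions, miR-221-3p, which endothelium and many other cells make, had 215 counts in 12 libraries, and its counts followed the library total (Spearman rho 0.930). miR-222-3p, from the same cluster, had 11 counts (rho 0.397), and miR-139-5p had none. Only miR-221-3p of the 3 passed the expression filter, and it was not called in any comparison of groups described below.

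Of the neural markers, miR-9-5p was the only listed miRNA present in all 14 libraries, with 94 counts. It has 3 genes in GRCh38: MIR9-1 at chr1:156420341-156420429 (minus strand, intron of C1orf61), MIR9-2 at chr5:88666853-88666939 (minus strand, exon of LINC00461) and MIR9-3 at chr15:89368017-89368106 (plus strand, intron of MIR9-3HG). The mature count cannot assign it to any of them. Its counts were 6, 5 and 5 in NT1, NT3 and NT4, and 10, 4, 11 and 7 in SB1 to SB4. They were 11, 7, 2 and 5 in TGFb1 to TGFb4, and 4, 9 and 8 in FGF2, FGF3 and FGF4. The count stayed between 2 and 11 in every library (mean 6.71 ± 2.79, SD, n = 14). At a constant share equal to its pooled 0.200%, NT1 would have held 29.7 counts and FGF2 0.230, where 6 and 4 were counted. The share was therefore lowest in TGFb3 (0.0267%) and highest in FGF2 (3.48%, 95% interval 1.36% to 8.60%), with a median of 0.520%.

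miR-124-3p, the most abundant miRNA of mature neurons, had 0 of 47091 counts, which allows a pooled share of up to 0.00637%. The other arms, miR-9-3p and miR-124-5p, were also at 0. Of 9 neural companions, 5 were detected, with 103 counts, and 92 of these were miR-128-3p. miR-128-3p, which is enriched in brain but made elsewhere too, was in 6 libraries only and followed depth (rho 0.893), unlike miR-9-5p, which was in every library.

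Blood markers were sparse. miR-451a, a red cell miRNA that AGO2 rather than Dicer cuts from its hairpin, had 0 of 47091 counts. miR-223-3p, made in neutrophils, monocytes and platelets (gene at chrX:66018870-66018979, GRCh38, plus strand), had 3 counts, 1 each in FGF2, FGF3 and SB3. miR-142-3p, made throughout the blood lineages (gene at chr17:58331232-58331318, GRCh38, minus strand), had 14 counts in 6 libraries. These were 3 in NT3, 2 in NT4, 1 in TGFb1, 3 in TGFb4, 3 in FGF3 and 2 in FGF4. No SB library held miR-142-3p, where 0 of 5636 pooled counts allow up to 0.0532%, and the other groups' pooled shares were 0.0197% in NT, 0.0336% in TGFb and 0.118% in FGF. At the pooled share of all libraries, 0.0297%, NT1 would have held 4.42 counts of miR-142-3p, where none was seen.

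Other blood miRNAs were read from 2 companion lists. Of 5 red cell miRNAs, 3 were detected with 402 counts, of which 390 were miR-16-5p, a miRNA that nearly all cells make. miR-486-5p, abundant in red cells, had 6 counts in 3 libraries, and both arms of miR-144, the cluster partner of miR-451a, were at 0. Of 5 white cell and platelet miRNAs, 3 were detected with 176 counts, 138 of miR-146a-5p, 34 of miR-155-5p and 4 of miR-142-5p. miR-150-5p, a lymphocyte miRNA, and miR-223-5p were at 0. The 2 arms of miR-142 were found together in 2 libraries, the 3′ arm alone in 4 and the 5′ arm alone in 1. The last was SB4, with 2 counts of miR-142-5p, so the SB libraries were not without miR-142.

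The muscle markers miR-1-3p and miR-133a-3p come from 2 clusters in the genome. MIR1-1 (chr20:62554306-62554376) and MIR133A2 (chr20:62564912-62565013) lie 10536 bases apart on the plus strand, in MIR1-1HG. MIR1-2 (chr18:21829004-21829088) and MIR133A1 (chr18:21825698-21825785) lie 3219 bases apart on the minus strand, in exons of MIR133A1HG and within an intron of MIB1 on the other strand (all GRCh38). Both clusters encode both miRNAs, so a transcript of either carries the pair.

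miR-1-3p had 22 counts in 7 libraries: 3 in NT3, 8 in NT4, 3 in SB1, 1 in SB2, 4 in SB3, 2 in TGFb4 and 1 in FGF3. NT4, with 1010 counts, held 8 (0.792%, 95% interval 0.402% to 1.56%), while NT1, with 14862 counts, held none. miR-133a-3p had 12 counts in 6 libraries: 3 in NT1, 3 in NT3, 1 in SB3, 2 in TGFb1, 1 in TGFb3 and 2 in FGF3. All libraries with miR-133a-3p had totals of 1418 or more. Both miRNAs were found in 3 libraries, miR-1-3p alone in 4, miR-133a-3p alone in 3 and neither in 4. With 22 and 12 counts, whether the pair varied together was not detectable at this depth. miR-206, which shares the seed of miR-1-3p and is made in skeletal muscle, had 4 counts, and it was the only detected companion of 7. The cardiac miR-208a-3p, miR-208b-3p and miR-499a-5p were at 0, as were miR-1-5p, miR-133a-5p and miR-133b.

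The listed miRNAs differed in how their counts followed the library total. The Spearman rho of count with total over the 14 libraries was -0.31 for miR-122-5p, 0.305 for miR-126-3p, 0.0864 for miR-9-5p, 0.289 for miR-142-3p and 0.127 for miR-1-3p. It was 0.826 for miR-133a-3p. Over the 47 miRNAs that passed the expression filter the median rho was 0.873, with quartiles of 0.579 and 0.937, and miR-133a-3p was the only listed miRNA between those quartiles. miR-122-5p had the lowest rho of those 47, miR-9-5p ranked 5 from the lowest and miR-126-3p ranked 9. The filter kept these 3 for high shares in shallow libraries, as given below, which favours a low rho. Among the 141 miRNAs with a mean of at least 1 count over all libraries, a background added after the data were seen, the median rho was 0.784. There miR-122-5p ranked 1, miR-9-5p 5, miR-1-3p 6, miR-142-3p 13 and miR-126-3p 15 from the lowest. Between miR-122-5p and miR-126-3p among the 47 lay miR-3168, let-7b-5p, miR-143-3p, let-7i-5p, miR-205-5p and miR-30a-5p, so a weak relation to depth was not limited to markers of other lineages. The counts and the totals come from the same libraries, and with so few counts these coefficients are descriptions.

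**Figure D2:**
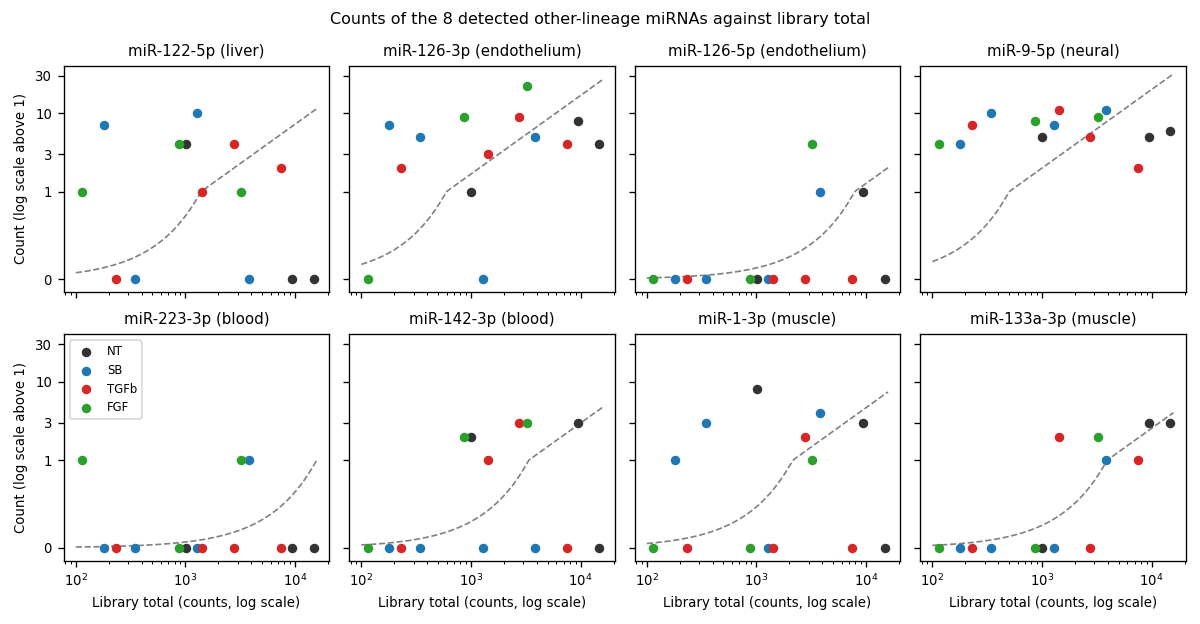
Count of each of the 8 detected miRNAs (y axis, linear from 0 to 1 and log above) against the library total (x axis, counts, log scale), with 1 point per library coloured by group and a dashed curve for a constant share equal to the pooled share. miR-9-5p stays between 2 and 11 counts at every total, while miR-133a-3p appears only in libraries of 1418 counts or more.

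**Figure D3:**
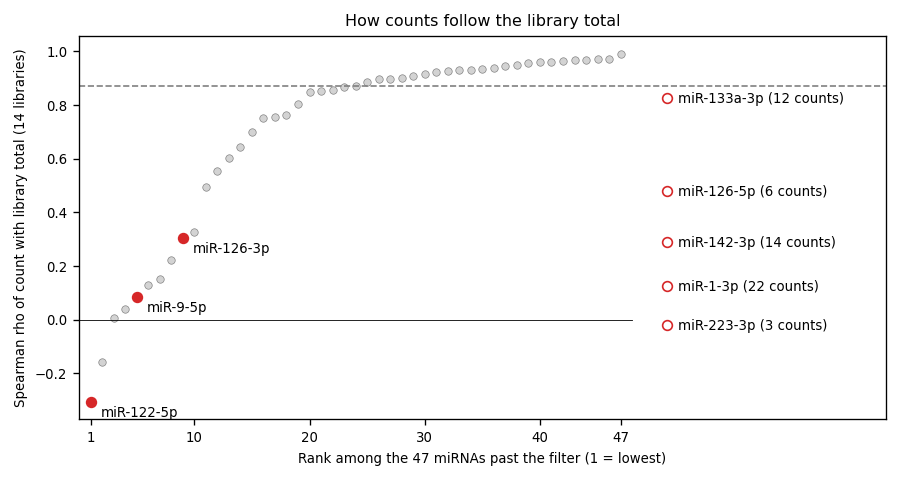
Spearman rho of count with library total over 14 libraries (y axis) for the 47 miRNAs past the filter, ordered from the lowest (x axis, rank); the listed miRNAs are filled red, those below the filter are open red at the right, and the dashed line is the median of the 47. miR-122-5p is the lowest at -0.31, and the median is 0.873.

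The same relation shows in pooled shares by depth. The 4 libraries under 500 counts hold 870 counts, the 7 between 500 and 5000 hold 14419 and the 3 of 5000 or more hold 31802. miR-9-5p made up 2.87% of the first (25 counts, 95% interval 1.95% to 4.21%), 0.388% of the second (56 counts) and 0.0409% of the last (13 counts, 0.0239% to 0.0699%). miR-122-5p ran in the same order, with 0.920% (8 counts), 0.166% (24 counts) and 0.00629% (2 counts). miR-126-3p made up 1.61% (14 counts), 0.340% (49 counts) and 0.0503% (16 counts). The share in the shallowest class was 70.3 times that in the deepest for miR-9-5p, 146 times for miR-122-5p and 32.0 times for miR-126-3p. Without SB2, which held 7 of the 8 shallow counts of miR-122-5p and 7 of the 14 of miR-126-3p, the ratios were 74.3 for miR-9-5p, 23.0 for miR-122-5p and 20.1 for miR-126-3p. The median ratio, with SB2, was 1.18 over the 47 miRNAs past the filter (quartiles 0.751 and 8.59), which favours high ratios. It was 0.690 over the 141 miRNAs with a mean of at least 1 count. miR-133a-3p had 0 of 870 counts, which allows up to 0.345%, then 5 of 14419 (0.0347%) and 7 of 31802 (0.0220%). The order of its shares over the 3 classes is therefore not settled.

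Shares by treatment group were set beside these totals, because NT holds the 2 deepest libraries. The summed share of the 10 miRNAs averaged 0.770% ± 1.05 in the 3 NT libraries (mean ± SD), 4.44% ± 4.59 in the 4 SB libraries, 1.53% ± 1.65 in the 4 TGFb libraries and 3.06% ± 1.98 in the 3 FGF libraries. Without SB2, the SB mean was 2.38% ± 2.48, below that of FGF. Pooled over the libraries of a group, where deep libraries weigh more, the summed shares were 0.221% in NT, 1.37% in SB, 0.496% in TGFb and 1.70% in FGF. For miR-9-5p the mean shares were 0.196% ± 0.259 in NT, 1.49% ± 1.28 in SB, 1.00% ± 1.39 in TGFb and 1.56% ± 1.69 in FGF. For miR-126-3p they were 0.0702% ± 0.0381, 1.37% ± 1.81, 0.364% ± 0.353 and 0.572% ± 0.527 in the same order. For miR-122-5p they were 0.132% ± 0.229, 1.17% ± 1.86, 0.0604% ± 0.0631 and 0.454% ± 0.419. Without SB2, the SB means were 1.24% ± 1.44 for miR-9-5p, 0.527% ± 0.802 for miR-126-3p and 0.259% ± 0.449 for miR-122-5p. The spread within each group was as large as the mean or close to it for most of these values. The shares of these 3 miRNAs overlapped in each pair of groups compared. Over the 47 miRNAs past the filter, shares did not overlap for 8.51% in SB against NT, 8.51% in TGFb against NT, 17.02% in FGF against NT and 8.51% in TGFb against SB.

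**Figure D4:**
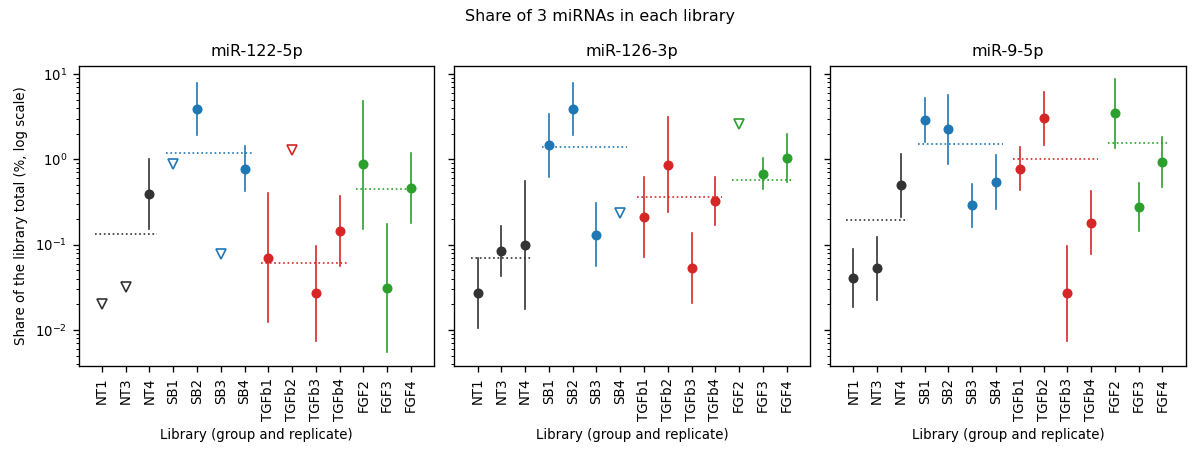
Share of the library total (y axis, percent, log scale) of miR-122-5p, miR-126-3p and miR-9-5p in each library (x axis, group and replicate), with 95% Wilson intervals; open triangles mark the limit that a count of 0 allows, and dotted lines the group means. Replicates of a group lie far apart, with miR-9-5p at 0.0267% in TGFb3 and 3.03% in TGFb2.

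None of the listed miRNAs was called between groups on the raw counts (edgeR quasi-likelihood test, adjusted p threshold 0.05 over the 47 miRNAs past the filter). Only miR-122-5p, miR-126-3p and miR-9-5p passed the filter, which asked for a share of about 0.740% in 3 libraries. They passed through shallow libraries, since those above that share held at most 1286 counts for miR-122-5p, 868 for miR-126-3p and 1418 for miR-9-5p. No NT library lay above it for any of the 3, the highest being NT4 at 0.495% for miR-9-5p. Passing the filter thus favours a level above that in NT, and the differences from NT below carry this selection. The other 7 were not tested. Over the 4 groups together the calls were 0 of 47 miRNAs (0%), with 5 at an unadjusted p under 0.05, and DESeq2 called 2. The adjusted p was 0.591 for miR-122-5p, 0.483 for miR-126-3p and 0.483 for miR-9-5p.

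In SB against NT 1 of 47 miRNAs was called (2.13%) and none of the 3. miR-126-3p was higher in SB by 3.69 on the log2 scale (SE 1.43, edgeR adjusted p = 0.245), miR-9-5p by 3.03 (SE 1.29, adjusted p = 0.276) and miR-122-5p by 3.68 (SE 2.18, adjusted p = 0.441). DESeq2 called miR-126-3p here (4.26, adjusted p = 0.0228), among 3 of 47 miRNAs (6.38%). Without NT4, the shallowest NT library, 9 of 53 miRNAs were called (17%), all 3 of these among them. miR-9-5p was then at 4.24 (edgeR adjusted p = 0.0203) and miR-126-3p at 3.64 (adjusted p = 0.04996). For miR-122-5p (adjusted p = 0.0192) the 2 NT libraries left were at 0 counts, so its fitted difference has no fixed size. In the libraries of at least 500 counts the differences were 0.02 for miR-126-3p (edgeR adjusted p = 0.995), 1.23 for miR-9-5p (adjusted p = 0.734) and 2.11 for miR-122-5p (adjusted p = 0.715). Without SB2 alone miR-126-3p was at 1.78 (edgeR adjusted p = 0.542). With the log10 library total as a covariate, an alternative added after the data were seen, the 3 differences were 1.38 for miR-122-5p, 1.38 for miR-126-3p and 0.77 for miR-9-5p, and none was called (adjusted p = 0.812 for each). All 3 differences were smaller both with that covariate and in the libraries of at least 500 counts. That cut leaves out SB1 and SB2, which held the highest SB shares of miR-126-3p and miR-9-5p. Totals ran from 179 to 3826 in SB and from 1010 to 14862 in NT, so depth and treatment cannot be told apart here.

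In TGFb against NT 0 of 47 miRNAs were called (0%), 2 had an unadjusted p under 0.05 and DESeq2 called 0. The log2 differences were 2.36 for miR-9-5p (SE 1.27, edgeR adjusted p = 0.935), 2.04 for miR-126-3p (SE 1.36, adjusted p = 0.935) and 0.49 for miR-122-5p (SE 2.01, adjusted p = 0.955). In FGF against NT 1 of 47 was called (2.13%) and again none of the 3. The differences were 3.04 for miR-126-3p (SE 1.40, adjusted p = 0.261), 2.59 for miR-9-5p (SE 1.36, adjusted p = 0.288) and 1.87 for miR-122-5p (SE 2.36, adjusted p = 0.755). In the libraries of at least 500 counts miR-126-3p stayed at 2.91 (edgeR adjusted p = 0.200), with miR-9-5p at 1.43 (adjusted p = 0.599) and miR-122-5p at 1.23 (adjusted p = 0.737). With the log10 library total as a covariate the differences were 1.81, 0.36 and 0.07 in the same order, and none was called. Without NT4, 8 of 53 miRNAs were called in FGF against NT (15.1%), miR-9-5p among them (3.85, adjusted p = 0.0474). These 3 comparisons share the NT libraries, so their common direction is not independent.

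In TGFb against SB 0 of 47 miRNAs were called (0%), with 4 at an unadjusted p under 0.05 and 0 called by DESeq2. This comparison comes from the same fit and reuses the TGFb and SB libraries. It is therefore not independent of their comparisons with NT. The log2 differences were -3.20 for miR-122-5p (SE 1.93, edgeR adjusted p = 0.783), -1.65 for miR-126-3p (SE 1.27, adjusted p = 0.879) and -0.67 for miR-9-5p (SE 1.10, adjusted p = 0.907). The sign of the last 2 turned without SB2, the SB library of 179 counts, to 0.11 for miR-126-3p and 0.06 for miR-9-5p.

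Some of the listed miRNAs varied with the replicate number that the labels give. miR-122-5p was in 4 of 4 libraries numbered 4, with 22 of 5934 counts (0.371%, 95% interval 0.245% to 0.561%). It had 3 of 24007 in the 4 libraries numbered 3 (0.0125%), 1 of 16625 in the 3 numbered 1, and 8 of 525 in the 3 numbered 2 (1.52%). Number 4 libraries held 64.7% of all miR-122-5p counts and 12.6% of all counts. miR-133a-3p was in 4 of 4 libraries numbered 3, with 7 of 24007 counts, and in none numbered 2 or 4. The labels do not say what a number stands for, and depth differed between the numbers.

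Within number 4, where totals ran only from 868 to 2770, the 3 miRNAs can be read at nearer depth. miR-9-5p had 5 counts in NT4 (0.495%), 7 in SB4 (0.544%), 5 in TGFb4 (0.181%) and 8 in FGF4 (0.922%). miR-126-3p had 1 count in NT4 (0.0990%), 0 in SB4, 9 in TGFb4 (0.325%) and 9 in FGF4 (1.04%). miR-122-5p had 4 counts in NT4 (0.396%), 10 in SB4 (0.778%), 4 in TGFb4 (0.144%) and 4 in FGF4 (0.461%). SB4 held the highest share of miR-122-5p and no count of miR-126-3p, which allows up to 0.233% and does not set it below NT4. Each group has 1 library at this number, so these values have no replicate check.

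The authors also deposited an adjusted table, and it moved the listed miRNAs by replicate number. Of their 60 nonzero values 41 were altered, and no 0 was. The 27 counts of miR-9-5p in libraries numbered 3 became 136 (5.04 times, higher in 4 of 4 libraries), while the 27 in libraries numbered 1 became 16 and the 15 in those numbered 2 became 6. For miR-126-3p the sums went from 39 to 91 in number 3 and from 19 to 28 in number 4. miR-122-5p went from 22 to 8 in number 4 (lower in 4 of 4 libraries) and from 3 to 13 in number 3, the latter through TGFb3 alone, where 2 became 12. The rho of the adjusted value with the sum of a library's adjusted values was 0.492 for miR-9-5p, 0.606 for miR-126-3p and -0.19 for miR-122-5p. Raw counts against raw library totals gave 0.0864 and 0.305 for the first 2 of these, so both variables differ between the 2 sets of rho. How the authors made the adjusted values is not given in the sources used here.

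**Figure D5:**
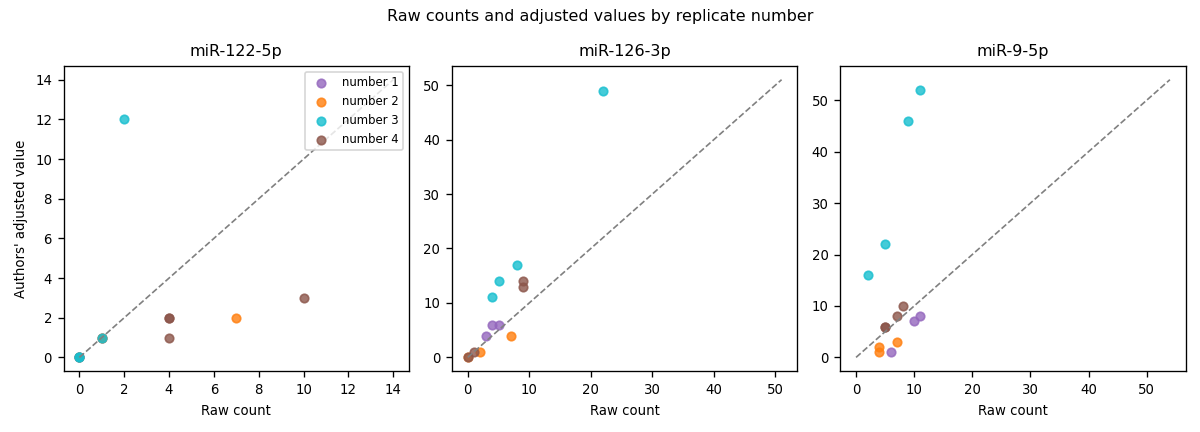
Value in the authors' adjusted table (y axis) against the raw count (x axis, both linear) of miR-122-5p, miR-126-3p and miR-9-5p, with 1 point per library coloured by replicate number and a dashed line of equal values. Libraries numbered 3 lie above the line for miR-9-5p, where 27 counts became 136.

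For the members with a count in at least 10 libraries, the 3 miRNAs with the most similar shares were found among the 47 past the filter. miR-9-5p was most like let-7b-5p (Spearman rho of share 0.811, 14 libraries), miR-143-3p (0.666) and miR-4497 (0.640). miR-126-3p was most like let-7a-5p (0.541), let-7b-5p (0.449) and miR-34a-5p (0.442). These shares have the library total as a common denominator, and the share of miR-9-5p itself had a rho of -0.94 with the total and that of let-7b-5p -0.85.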

How the data were processed

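EV RNA was sequenced after PEG precipitation with a QIAseq miRNA library kit, per the labels' protocols. The raw counts per miRNA were analysed as the authors deposited them, as whole numbers and without normalization. Their deposited adjusted table holds whole numbers that are no longer counts and is treated as a score. The genome build is GRCh38, per the submitters' processing notes. The aligner, the adjustment and the use of molecular identifiers are not given in the sources used here, so a count may be a read or a molecule. The authors' CPM columns were not used.

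The members and companion lists were chosen with earlier results of these data known. All 10 members are named, as are companions with at least 10 counts and the 3 miRNAs most like a member present in at least 10 libraries; others are named where a result turns on them, chosen after their values were seen. Shares are counts over library totals (115 to 14862). Groups were compared in 1 fit of all 14 libraries with edgeR 4.0.16 (R 4.3.3; TMM, robust quasi-likelihood, filterByExpr with a minimum count of 10, group means only), with Benjamini-Hochberg adjustment over 47 miRNAs. Standard errors are the log2 difference over the square root of F. Alternatives were RLE factors, library size only, DESeq2 1.42.0, limma 3.58.1 on the adjusted values (log2 CPM, prior count 2), no filter and a mean count of 5. Others were libraries of at least 500 counts, only the groups compared, a replicate block, the log10 library total as a covariate, and each library left out. The number of miRNAs adjusted over changed with the filter and the libraries, and was 72 with a mean count of 5 and in libraries of at least 500 counts. The fit was tested on simulated data. The 18 pairs of replicates differed by more than random division of independent counts gives (p = 0.0005 in a permutation test, the smallest that 2000 resamples can give). Counts that are reads need not be independent, and the source of the excess was not tested. Gene positions are from GENCODE 29.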

Additional observations from a re-analysis of the deposited data

Results flagged for a closer look

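In groups of 4 libraries, a library was picked out when its gap to the nearest other, as a part of the group's range, passed Dixon's 95% critical value. Of 15 sets of shares examined, 5 had such a library. About 1 in 20 sets passes by chance, a rate that does not apply where most values are 0. In 4 of the 5 the gap was 1 because a single library held counts and the others of its group were at 0. SB3 held 1 count of miR-126-5p, of miR-223-3p and of miR-133a-3p each (0.0261%), and TGFb4 held 2 counts of miR-1-3p (0.0722%). For miR-133a-3p in TGFb the gap was 0.905, with 2 counts in TGFb1 (0.141%), 1 in TGFb3 and none in TGFb2 and TGFb4. SB3 is the deepest SB library, and the limits that a count of 0 allows in SB1 (0.870%) and SB2 (1.68%) lie above the shares seen in SB3.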

How the results depend on the processing

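No listed miRNA was called among the 4 groups, in TGFb against NT or in TGFb against SB under any alternative run. Over all tested miRNAs, DESeq2 called 3 in SB against NT where edgeR called 1, and 2 among the 4 groups where edgeR called 0. In SB against NT the number of members called was 1 with DESeq2 and ran from 0 to 3 with each library left out, and in FGF against NT it ran from 0 to 1, in both cases through NT4. Signs turned only in uncalled differences. miR-122-5p in TGFb against NT was -0.44 with DESeq2 and ran from -0.55 to 4.45 with each library left out (the highest without NT4, which leaves NT at 0 counts; -0.54 without NT1, -0.55 without NT3, -0.36 without TGFb4). In TGFb against SB with libraries of at least 500 counts, miR-126-3p was 1.28 and miR-9-5p 0.17. With each library left out, miR-126-3p ran from -2.19 to 0.11 (0.11 without SB2) and miR-9-5p from -1.64 to 0.51 (0.51 without SB1, 0.06 without SB2). The cause was not tested. The replicate block left 0 members called in every comparison (miR-9-5p in SB against NT 2.27, edgeR adjusted p = 0.204), while over all 47 miRNAs it called 4 among the 4 groups and 3 in TGFb against SB, where the fit without it called 0, and 2 in FGF against NT in place of 1. With group means taken out, same-numbered libraries correlated at a mean of 0.307 over 18 pairs (0.00574 to 0.628, above 0.1 in 15). The main fit has group means only, so its p-values leave this likeness out. The labels do not say what a number stands for, and no pairing was assumed in that fit. Without the filter 447 miRNAs and 8 members were tested and 0 members were called. In libraries of at least 500 counts the rho of miR-122-5p with the total was -0.79. Depth limits every value: 1 count is 0.870% of FGF2 and 0.00673% of NT1.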
